A study of Homo sapiens with 4 samples.

Results

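Growth factor receptors of squamous cancer were examined at the 3′ ends of their mRNAs in a pair of esophageal squamous cell carcinoma (ESCC) lines. The set comprised 9 genes: EGFR, ERBB2, ERBB3, MET, FGFR1, FGFR2, FGFR3, IGF1R and AXL. A poly(A) site cluster (PAC, a group of neighbouring cleavage sites) was assigned to a gene when its dominant site, the position with the most tags, fell on the same strand within the GENCODE 44 span of that gene in at least 1 library. In KYSE30 the dominant site of MET lies 9 nt past its span, so its PAC was assigned through TE-1, the line in which MET was higher. This rule found 21 of the 17627 PACs in the series. They belonged to 8 of the 9 genes, out of 11275 genes with any PAC. FGFR2 (chromosome 10, 121478332 to 121598458, minus strand) had no PAC in the tables used here, so its level was not measured.

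KYSE30 and TE-1, both established ESCC lines, were each profiled by PAS-seq, a strand-specific method that reads the end of polyadenylated RNA, after 20 mM l-lactate for 24 h or after PBS as the vehicle. The 4 groups, KYSE30 l-lactate, KYSE30 PBS, TE-1 l-lactate and TE-1 PBS, held 1 library each. The tag "cell line" of both PBS libraries names a different line (KYSE32 and TE-3), whereas their titles name KYSE30 and TE-1, and the titles were followed. Over 9136 genes, which are not independent replicates, levels in the libraries of a line ran together (Spearman's rho 0.99), and those of different lines less so (0.694 to 0.703).

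Depth ranged from 7174991 to 10393799 tags per library, and the deposited values (RPM) are tags scaled to the size of the library with no correction for length. The lowest value listed was between 1.058 and 1.115 RPM. No PAC of a single position was listed below 3.066 RPM, so a PAC that is missing from a library may have held up to about that much, and "unlisted" below does not mean absent. Of 12 epithelial markers, 7 were listed (5 higher in KYSE30 and 2 in TE-1 by the test given below), and KRT5, KRT14, TP63, SFN and DSG3 were listed in no library. Of all genes tested, 36.9% were called higher in KYSE30 and 36.8% higher in TE-1. DSC3 and KRT6A were unlisted in TE-1, and KRT17 in KYSE30. These genes and CDH1 passed the filter of the test, a mean of at least 5 RPM, through 1 line alone. The lines differed in the markers themselves: CDH1 was at 204.3 to 228.01 RPM in KYSE30 and at no more than 1.299 RPM in TE-1, EPCAM at 563.06 to 635.26 against 30.691 to 36.368 RPM, and KRT17 was unlisted in KYSE30 and at 186.8 to 244.66 RPM in TE-1. Of 14 markers of fibroblasts, leukocytes, endothelium and muscle, 4 were listed, summing to between 14.63 and 24.05 RPM per library, and COL1A2, COL3A1, PTPRC, PECAM1 and DES were unlisted in all of them. CDH5, an endothelial cadherin, was at 11.15 and 16.16 RPM in KYSE30 and unlisted in TE-1, and CD68 was at 3.484 to 15.232 RPM. In such bulk RNA, fewer cells with a transcript and less of it per cell cannot be told apart.

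These receptors are transmembrane proteins with a tyrosine kinase domain inside the cell. Binding of a growth factor brings receptor chains together, the kinases phosphorylate the tails, and adaptors carry the signal to the RAS-MAPK and PI3K-AKT cascades. EGFR, ERBB2 and ERBB3 form one family, in which ERBB2 has no known ligand of its own and ERBB3 has a weak kinase and signals through its partners. MET binds hepatocyte growth factor, FGFR1 to FGFR3 bind fibroblast growth factors, IGF1R binds insulin-like growth factors and AXL binds GAS6. Cleavage of a pre-mRNA is directed by a poly(A) signal upstream of the site, most often AATAAA or ATTAAA in DNA letters. Use of a proximal site leaves a short 3′ UTR, and a site inside an intron ends the transcript before the remaining coding exons.

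The proximal and distal sites compared below, the single sites of ERBB2 and FGFR3, the main site of ERBB3 and a pair of EGFR sites upstream of its last exon are shown as 30 bases of the hg38 genome, on the sense strand, that end at the dominant site. Capitals mark the poly(A) signal. The pair from MET is shown because the dominant site differs between the lines.
EGFR, intron 1, chr7:55021158-55021187: ccaatAATAAAggattccgcttttcattga
EGFR, end of EGFR-204, chr7:55156908-55156937: gttcccttggAATAAAaacatttcttctga
EGFR, proximal 3′ UTR, chr7:55207309-55207338: gaaAATAAAactatattcatttccactcta
EGFR, distal 3′ UTR, chr7:55211540-55211569: attgagtATTAAAaaattagatgtatatta
ERBB2, chr17:39728545-39728574: ttttaaagatgaAATAAAgacccaggggga
ERBB3, distal 3′ UTR, chr12:56103476-56103505: tctgAATAAAaatgccaaagttttttttca
MET, site of TE-1, chr7:116798347-116798376: taaatcatgcaATTAAAgtaaagtgatgca
MET, site of KYSE30, chr7:116798357-116798386: aATTAAAgtaaagtgatgcaacatcttgta
FGFR3, chr4:1808837-1808866: tttccgaaaAATAAAgacacctggttgcta
IGF1R, proximal 3′ UTR, chr15:98958668-98958697: acggttcagatattcatctatacgtctgta
IGF1R, distal 3′ UTR, chr15:98964501-98964530: tttaagttaAATAAAataattctgtatgca
AXL, proximal 3′ UTR, chr19:41260261-41260290: ctctaattctATTAAAgtgctaaggttcta
AXL, distal 3′ UTR, chr19:41261737-41261766: caggtcaCATAAAactttgtatatcaacga

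Of the 21 receptor PACs, 18 lay in a 3′ UTR, 2 in an intron and 1 in a noncoding exon, and 17 lay in the last exon of the canonical transcript. The dominant site of 11 of the 18 3′ UTR PACs was within 24 nt of an annotated transcript end. Within the 50 nt upstream of the site, on the sense strand, 12 PACs held AATAAA and 5 held ATTAAA without it. Across 17621 PACs on the assembled chromosomes these shares were 66.4% and 16.7%. A further 2 receptor PACs held only another of the 12 hexamers searched (AATAAA or ATTAAA or TATAAA or AGTAAA or CATAAA or GATAAA or AATATA or AATACA or AATAGA or ACTAAA or AAGAAA or AATGAA), and 2 held none, against 12.1% and 4.79% of all PACs. TGTA, the DNA form of the motif bound by the cleavage factor NUDT21, occurred in the 100 nt upstream of 10 of the 21 sites (47.6%), and of 57.0% of all PACs. A match of letters is a description and not a binding site. The 20 bases just downstream of the site held at least 12 A in 3 receptor PACs, the proximal PACs of IGF1R and ERBB3 and the distal PAC of FGFR1, compared with 0.97% of all PACs. Whether priming on such stretches added to their tags was not tested.

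The lines differed in their receptor profile. EGFR, ERBB2, ERBB3 and FGFR3 were higher in KYSE30, and MET, AXL and FGFR1 were higher in TE-1, so 4 genes passed the test in one direction, 3 in the other, and IGF1R did not pass. The test was limma on log2(RPM + 1) over 9136 genes with treatment as a second factor and Benjamini-Hochberg adjustment, and a fold change on this scale understates that of a low gene. Genes entered the test with a mean of at least 5 RPM over the 4 libraries, which FGFR1 reached through TE-1 alone. The background was high: 36.9% of genes were called higher in KYSE30 and 36.8% higher in TE-1. The libraries of the lines did not overlap for any of the 8 genes, which was also true of 85.5% of all genes tested. Where no source says that libraries came from separate cultures, the p-values measure only the spread between these samples, which may be technical. With 1 library per group, the spread of a gene in this fit is how far the lines differ in their change with l-lactate. Limma shares that spread across genes, and it is not a spread between replicates.

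EGFR was at 906.48 RPM with l-lactate and 900.94 RPM with PBS in KYSE30, and at 139.92 and 126.23 RPM in TE-1. Both KYSE30 libraries stood far above both TE-1 libraries, with means of 903.7 ± 3.915 and 133.1 ± 9.684 RPM (SD, n = 2 libraries each, over both treatments), a 6.79-fold difference. On the log2 scale the difference was 2.76 ± 0.07 (SE; limma, adjusted p = 8.1e-11). The middle 90% of all genes ranged from -2.65 to 2.84 on this scale, which takes in EGFR.

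ERBB3 had the largest fitted difference of the receptor genes in the direction of KYSE30, though with a pseudocount of 5 that of EGFR was larger (2.72 against 2.66 on the log2 scale). The level of ERBB3 was 63.414 RPM with l-lactate and 96.289 RPM with PBS in KYSE30, and 10.981 and 5.869 RPM in TE-1. The means differed 9.48-fold, and the log2 difference was 3.13 ± 0.25 (SE; limma, adjusted p = 6.51e-07), outside the middle 90% of genes. The ERBB3 PACs also lie within ENSG00000257411, a gene on the same strand whose span (chromosome 12, 56101331 to 56109289) overlaps the end of ERBB3, and tags of these genes cannot be told apart. ERBB2 was at 50.732 and 36.092 RPM in KYSE30 and at 29.756 and 20.782 RPM in TE-1, with l-lactate first. The lines did not overlap in ERBB2, but the gap between them was smaller than the gap within either line. The log2 difference of ERBB2 was 0.76 ± 0.12 (SE; limma, adjusted p = 0.000151). The ERBB2 call was lost whichever library was left out, with log2 differences of 0.51 to 1.01. Those fits had line as the only factor, so the difference of ERBB2 between treatments entered their spread. It also entered the spread of a fit with line as the only factor on all 4 libraries, which still called ERBB2 (limma, adjusted p = 0.0305).

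FGFR3 was at 42.369 and 45.518 RPM in KYSE30 and at 20.782 and 22.225 RPM in TE-1, with l-lactate first. It was thus 2.04-fold higher in KYSE30, with a log2 difference of 1.00 ± 0.12 (SE; limma, adjusted p = 2.12e-05). FGFR1 ran the other way. It was unlisted in KYSE30 with l-lactate, at 1.212 RPM in KYSE30 with PBS, and at 14.051 and 15.587 RPM in TE-1. Its distal PAC was 9.29-fold higher in TE-1 than in KYSE30 with PBS (95% counting interval 4.73 to 20.8), and at least 3.2-fold higher with l-lactate, against the lowest value listed for a PAC of a single position. The fitted log2 difference of -3.41 ± 0.27 (SE; limma, adjusted p = 5.77e-07) of FGFR1 depends on the pseudocount.

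AXL was at 53.241 and 53.599 RPM in KYSE30 and at 149.13 and 143.74 RPM in TE-1. The within-line gaps were small beside the 2.74-fold difference, which was -1.44 ± 0.08 on the log2 scale (SE; limma, adjusted p = 4.91e-08). MET was at 90.314 and 86.728 RPM in KYSE30 and at 136.14 and 137.58 RPM in TE-1, 1.55-fold higher in TE-1 with a log2 difference of -0.62 ± 0.08 (SE; limma, adjusted p = 3.13e-05). For MET the size was close to the edge of the middle 50% of all genes, -0.62 to 0.66. IGF1R was at 119.58 and 136.42 RPM in KYSE30 and at 118.31 and 110.07 RPM in TE-1. Its log2 difference was 0.16 ± 0.09 (SE), and limma did not call it (adjusted p = 0.125).

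The genes around the receptors were read from lists of ligands, other receptors, relay proteins, inhibitors and targets. Counts of genes called in these lists stand beside 36.9% of all genes called higher in KYSE30 and 36.8% higher in TE-1. Of 24 ligand genes, 6 were tested, of which 5 were higher in KYSE30 and 1 in TE-1. Of these 6 genes, 4 were unlisted in TE-1 and passed the filter through KYSE30 alone, so the fitted median log2 difference of 4.27 depends on the pseudocount, and with those genes at the bounds that the listing limit allows it was 2.66 (-0.0017 over all genes). The EGFR ligands TGFA and AREG were at 41.812 to 49.693 RPM and 27.203 to 35.54 RPM in KYSE30, and IGF2, a ligand of IGF1R, at 20.335 to 30.105 RPM. All of these were unlisted in TE-1, so the main PAC of each was at least 13.6-fold (TGFA), 8.84-fold (AREG) and 6.6-fold (IGF2) higher in KYSE30, against the lowest value listed for a PAC of a single position. PROS1, a ligand of the AXL family, was higher in TE-1 by 0.60 on the log2 scale, at 7.911 to 8.659 RPM against 4.848 to 5.436 RPM.

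Of 20 other receptor genes, 9 were tested, with 3 higher in KYSE30, 4 higher in TE-1 and 2 not called (median -0.27). The collagen receptor DDR1 (log2 difference 3.05), PTK7 (2.86) and the ephrin receptor EPHA2 (0.81) were higher in KYSE30. TYRO3, a relative of AXL, was higher in TE-1 (-2.53), as was FGFRL1, an FGF receptor without a kinase (-2.30). ROR2 was unlisted in KYSE30 and at 23.261 to 27.516 RPM in TE-1, at least 7.51-fold higher there. Of 32 relay genes, 29 were tested, with 9 higher in KYSE30, 15 higher in TE-1 and 5 not called (median -0.34). PIK3CA, a catalytic subunit of PI3K (2.52), was higher in KYSE30. Its TE-1 values lay far apart, at 6.258 RPM with l-lactate and 1.539 RPM with PBS, the latter near the lowest value listed. The adaptors GAB2 (-2.00) and IRS1 (-1.91) and the phospholipase PLCG1 (-1.72) were higher in TE-1. GAB2 and PLCG1 were at no more than 2.23 and 3.066 RPM in KYSE30. PIK3R1, a regulatory subunit of PI3K, was unlisted in TE-1 and at least 3.41-fold higher in KYSE30.

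Of 27 feedback inhibitors, 17 were tested, with 11 higher in KYSE30, 4 higher in TE-1 and 2 not called (median 0.99). The MAPK phosphatases DUSP6 (log2 difference 4.17) and DUSP4 (3.68) and ERRFI1, an inhibitor of the EGFR kinase (2.93), were higher in KYSE30. In TE-1, DUSP6 was at 1.299 RPM with l-lactate and unlisted with PBS, and DUSP4 was at 2.125 and 3.945 RPM. The fitted sizes for DUSP6 and DUSP4 thus depend on the pseudocount. The ubiquitin ligases RNF41, which acts on ERBB3 (-1.72), and CBL, which acts on EGFR (-1.29), were higher in TE-1, as was LRRC26 (-1.97), which is known as a subunit of a potassium channel rather than as an inhibitor of a receptor. Of 21 target genes, 15 were tested, with 9 higher in KYSE30, 6 higher in TE-1 and none left uncalled (median 0.85). The transcription factors ETV5 (3.79) and FOS (2.92) and the pleckstrin domain protein PHLDA1 (3.21) were higher in KYSE30. MYC (-1.82) and PHLDA2 (-2.36) were higher in TE-1. In all, 37 of the 76 genes tested over these lists were higher in KYSE30 and 30 in TE-1 (limma, adjusted p of at most 0.05). Of all genes, 73.7% were called in either direction, 36.9% higher in KYSE30 and 36.8% higher in TE-1.

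The genes whose levels over the 4 libraries ran most like that of ERBB3 were SAMD9 (root mean square distance 0.0337 in centred log2 RPM), BCAN-AS1 (0.168) and NATD1 (0.178), of 7625 genes compared. SAMD9 was at 47.108, 71.106, 7.557 and 4.233 RPM in KYSE30 l-lactate, KYSE30 PBS, TE-1 l-lactate and TE-1 PBS. It thus shared with ERBB3 the lower value with l-lactate in KYSE30 and the higher value in TE-1. Those most like FGFR1, of 7626 compared, were TNNC1 (0.174), L1CAM (0.233) and SLC41A3 (0.236). With 4 libraries such likeness is a description.

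The second comparison asked whether l-lactate changed the receptor levels. No receptor gene passed the test for l-lactate over the lines (limma, adjusted p from 0.246 for ERBB2 to 0.959 for AXL). Over all genes, limma called 0.0219% higher with l-lactate and 0.0% lower, while 10.6% had an unadjusted p under 0.05, ERBB2 and FGFR1 among them. The FGFR1 value depends on the pseudocount, with a log2 difference of -0.64, and of -0.21 with a pseudocount of 5. In KYSE30, FGFR1 was at 1.212 RPM with PBS and unlisted with l-lactate. None of the genes in the 5 pathway lists was called. Within a line, each condition was 1 library, so that no test was possible and the intervals below cover counting error only.

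ERBB2 had a similar ratio of l-lactate to PBS in both lines. It was at 50.732 RPM with l-lactate and 36.092 RPM with PBS in KYSE30, a ratio of 1.41 (95% counting interval 1.2 to 1.65), and at 29.756 and 20.782 RPM in TE-1, a ratio of 1.43 (1.19 to 1.73). The values were higher with l-lactate in both lines, which was true of 30.4% of all genes tested. The joint log2 difference for ERBB2 was 0.49 ± 0.12 (SE; limma, adjusted p = 0.246). With a pseudocount of 5 it was 0.44, and limma, which then pooled the spread across genes almost fully, called it (adjusted p = 0.0128). MIEN1, whose PAC lies on the opposite strand within the ERBB2 span, was at 115.54 and 126.59 RPM in KYSE30 and at 96.588 and 124.02 RPM in TE-1, lower with l-lactate in both.

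ERBB3 had ratios on opposite sides of 1. The ratio of l-lactate to PBS was 0.659 in KYSE30 (95% counting interval 0.584 to 0.742) and 1.87 in TE-1 (1.34 to 2.63). In TE-1 the higher value was still only 10.981 RPM. ERBB3 in both lines, and FGFR1 in KYSE30 where it went from 1.212 RPM to unlisted, were the receptor genes past a change of 1.5-fold in RPM + 1. This fold was passed by 1.97% of genes upward and 2.01% downward in KYSE30, and by 2.59% and 1.52% in TE-1.

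The other receptors had ratios closer to 1. The ratio for EGFR was 1.01 in KYSE30 (0.972 to 1.04) and 1.11 in TE-1 (1.02 to 1.2), with limma giving a joint log2 difference of 0.08 (adjusted p = 0.76). IGF1R was at 0.877 in KYSE30 (0.799 to 0.961) and 1.07 in TE-1 (0.987 to 1.17). For MET, FGFR3 and AXL every interval took in 1, with ratios between 0.931 and 1.04, as did that of FGFR1 in TE-1 (0.902, interval 0.706 to 1.15).

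EGFR (chromosome 7, 55019017 to 55211628, plus strand) had 7 PACs, spread from intron 1 to the end of the last of its 28 exons. The distal PAC, 5952 nt past the stop codon, held 66.1% and 65.1% of the EGFR tags in KYSE30 and 75.8% and 70.8% in TE-1, with l-lactate first. The PAC 1721 nt past the stop codon held 22.3% and 23.1% in KYSE30 and 17.2% and 18.9% in TE-1. A PAC at 2463 nt was at 46.829 and 47.943 RPM in KYSE30 and at 6.849 and 7.889 RPM in TE-1. The main 3′ UTR sites were thus used in both lines, at the same positions.

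Upstream of the last exon, the lines differed in what was listed. The intron 1 PAC, 2170 nt from the start of EGFR, was at 32.474 and 34.745 RPM in KYSE30 (3.58% and 3.86% of the gene) and was unlisted in TE-1. It was at least 10.6-fold higher in KYSE30 with l-lactate and 11.3-fold with PBS, against the lowest value listed for a PAC of a single position. EGFR as a whole was 6.48-fold and 7.14-fold higher. At the share seen in KYSE30, TE-1 would have held 5.01 and 4.87 RPM of this PAC, above that lowest value of 3.07 and 3.08 RPM. Transcripts that end there hold none of the exons after the first.

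The PAC at the end of EGFR-204, a transcript of 10 exons that codes for 405 amino acids where EGFR-201 codes for 1210, lies in intron 10 of EGFR-201 and was listed in all libraries. Such a product keeps part of the outer domain and lacks the kinase. It was at 17.84 and 19.662 RPM in KYSE30 and at 2.952 and 5.099 RPM in TE-1, which is 1.97%, 2.18%, 2.11% and 4.04% of the EGFR tags. In TE-1 the value was lower with l-lactate (ratio 0.579, counting interval 0.345 to 0.948), and in KYSE30 the interval took in 1 (0.907, 0.71 to 1.16). A PAC in an exon of EGFR-207 (4.878 and 4.579 RPM) was listed in KYSE30 libraries alone. At the same share it would have been under the listing limit in TE-1, so its absence from the TE-1 lists is not a measured difference. A PAC 4590 nt past the stop codon was listed once, at 3.066 RPM in KYSE30 with l-lactate.

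Distal use, the share of 3′ UTR tags in the most distal PAC, could be measured in 3 receptor genes, EGFR, IGF1R and AXL, which had at least 2 3′ UTR PACs above 5 RPM in some library. It was tested in 2045 genes by limma on the log2 odds. In KYSE30, 14.6% of them were more distal, and 6.85% were more distal in TE-1. A gene with no listed 3′ UTR tags in a line was still tested, at the even odds that the added 0.5 RPM gives. These shares therefore include calls, such as ABCA12 and ABCA3, where distal use was measured in only 1 of the lines. IGF1R was the receptor gene called, and it was more distal in KYSE30.

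IGF1R (chromosome 15, 98648539 to 98964530, plus strand) had its distal PAC at the annotated end of its long 3′ UTR, 7088 nt past the stop codon. This PAC was at 91.011 and 108.54 RPM in KYSE30 and at 62.581 and 61.864 RPM in TE-1. The proximal PAC, 1255 nt past the stop codon, was at 24.669 and 25.318 RPM in KYSE30 and at 51.01 and 42.429 RPM in TE-1. Both PACs separated the lines, in opposite directions, under a gene level that did not pass its test. Distal use of IGF1R was 78.7% (95% Wilson interval 75.8 to 81.3) and 81.1% (78.5 to 83.4) in KYSE30, and 55.1% (51.9 to 58.2) and 59.3% (56.4 to 62.2) in TE-1. The lines thus differed by 22.7 percentage points, or 1.55 ± 0.18 in log2 odds (SE; limma, adjusted p = 0.0249; median of all genes 0.29), and the mean length of the IGF1R 3′ UTR was 5844 and 5985 nt in KYSE30 and 4469 and 4715 nt in TE-1.

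Several limits touch this IGF1R result. The call was lost with a PAC minimum of 1 RPM (log2 odds 1.48, limma, adjusted p = 0.0768). It was also lost whichever library was left out, in fits with line as the only factor (log2 odds 1.43 to 1.68). In each of these fits limma called no gene at all, while the size of the IGF1R difference stayed close to 1.55. In addition, the dominant base of the proximal IGF1R PAC had none of the 12 hexamers upstream and 12 A in the 20 bases downstream. Such a stretch was seen in 0.708% of 3′ UTR PACs, and its part in the result was not tested. That base held 40.68% and 49.47% of the PAC in KYSE30 and 51.85% and 57.37% in TE-1, with l-lactate first. The PAC ran from 98958697 to 98958819. Its sequence, its distance of 1255 nt and the mean lengths thus describe the dominant base and not all of its tags. Smaller IGF1R PACs in intron 1 (at most 4.137 RPM) and 3980 nt past the stop codon (at most 2.559 RPM) did not enter the measure.

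EGFR had a distal use of 69.2% (68.1 to 70.3) and 68.0% (66.9 to 69.2) in KYSE30 and of 75.8% (73.3 to 78.1) and 70.8% (68.3 to 73.2) in TE-1, with the EGFR-204 end counted among its 3′ UTR PACs. The log2 odds differed by -0.32 between the lines, and EGFR was not called (limma, adjusted p = 0.284). AXL (chromosome 19, 41219223 to 41261766, plus strand) had a distal use of 74.1%, 78.6%, 74.1% and 75.5% in KYSE30 l-lactate, KYSE30 PBS, TE-1 l-lactate and TE-1 PBS. Its sites lie 386, 1297 and 1862 nt past the stop codon. The lines overlapped in AXL (log2 odds 0.10, limma, adjusted p = 0.701). The middle AXL site was listed in TE-1 alone, at 6.14 and 4.137 RPM, and at the same share it would have been under the listing limit in KYSE30.

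No receptor gene was called for a change of distal use with l-lactate (limma, adjusted p = 0.637 for EGFR, 0.598 for IGF1R and 0.616 for AXL). Limma called 0.0% of genes in either direction, and 8.66% had an unadjusted p under 0.05. The distal use of EGFR was higher with l-lactate by 4.97 percentage points in TE-1 (95% counting interval 1.5 to 8.42) and by 1.17 points in KYSE30 (-0.442 to 2.8). For IGF1R the difference was -2.42 points in KYSE30 (-6.14 to 1.27) and -4.23 points in TE-1 (-8.5 to 0.0638). For AXL it was -4.56 points in KYSE30 (-10.5 to 1.4) and -1.39 points in TE-1 (-4.66 to 1.85). None reached 10 points, a change that 3.62% of genes made upward and 6.75% downward in KYSE30, and 6.36% and 5.57% in TE-1.

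The position of cleavage was compared next. Among PACs above 5 RPM in both libraries, the dominant site was at the same base with l-lactate and PBS in 13 of 13 receptor PACs in KYSE30 and in 12 of 12 in TE-1. Between the lines it was at the same base in 10 of 11 PACs with l-lactate and in 11 of 12 with PBS. The exception was MET, and no shift passed 24 nt.

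MET (chromosome 7, 116672196 to 116798377, plus strand) had a single PAC, at the end of its last exon, with different dominant bases in the lines. In KYSE30 the dominant site was 116798386, with 62.2% (95% Wilson interval 58.4 to 65.8) and 64.0% (60.2 to 67.6) of the PAC with l-lactate and PBS. In TE-1 it was 116798376, 10 nt upstream, with 89.4% (87.5 to 91.1) and 89.8% (88.1 to 91.3). At most 10.6% and 10.2% of the TE-1 tags can have lain at the KYSE30 site, so the share at that base differed by at least 51.6 percentage points between the lines. As the MET sequences above show, both sites follow the same ATTAAA, which ends 13 nt before the TE-1 site and 23 nt before the KYSE30 site. The KYSE30 site lies 9 nt past the annotated end of MET. Among 8909 PACs above 5 RPM in all libraries, 2.01% had a dominant base shared within each line and different between the lines, and 0.0898% (8 PACs, MET among them) also differed by at least 50 points. The cause was not tested.

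ERBB2 (chromosome 17, 39687914 to 39730426, plus strand) and FGFR3 (chromosome 4, 1793293 to 1808872, plus strand) had 1 PAC each, 530 and 1604 nt past the stop codon, which held all listed tags of those genes in every library. ERBB3 (chromosome 12, 56076799 to 56103505, plus strand) had a main PAC at its annotated end, 1450 nt past the stop codon, and a small one at 907 nt that was listed in KYSE30 alone (3.484 and 3.905 RPM). The small PAC held 5.495% and 4.056% of the ERBB3 tags in KYSE30. At the same share it would have been under the listing limit in TE-1, so its absence there is not a measured difference. For the main PAC of ERBB3 the ratio of l-lactate to PBS was 0.649 (counting interval 0.574 to 0.733) in KYSE30 and 1.87 in TE-1. FGFR1 (chromosome 8, 38400215 to 38468834, minus strand) had PACs 898 nt (4.251 and 4.33 RPM in TE-1) and 2001 nt past the stop codon (9.8 and 11.257 RPM in TE-1). Their levels in TE-1 with l-lactate and PBS differed by less than counting error, with ratios of 0.982 (0.615 to 1.56) and 0.871 (0.649 to 1.16).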

How the data were processed

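PAS-seq libraries of KYSE30 and TE-1 cells were grouped by title and treatment label. According to the study's methods, HISAT2 placed the trimmed reads on GRCh38, CAGEr called the sites, low sites were removed and those within 24 nt were joined. The RPM values were deposited by the authors under the name TPM, as tags scaled to the library. A PAC unlisted in a library was set to 0. Values below 50 RPM were whole multiples of 1 tag in each library, within 0.1 tag, which gave the depth and the 95% counting intervals (exact for levels and ratios, Wilson for shares). Intervals and limits cover counting error only.

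PACs were placed by dominant site on GENCODE 44. Gene levels (mean of at least 5 RPM, log2(RPM + 1)) and distal use (0.5 RPM added) were fitted over all 4 libraries with limma 3.58.1 in R 4.3.3, with line and treatment as factors, 1 residual degree of freedom and Benjamini-Hochberg adjustment, called at 0.05. Intervals came from SciPy 1.17.1, tables from pandas 2.3.3 with NumPy 2.4.6 under Python 3.11.15, and plots from matplotlib 3.10.9. The named genes are the 9 receptors, up to 3 called genes per direction with the largest line difference in each list, and the 3 genes nearest in pattern to the receptor with the largest fitted line difference in each direction, and some genes that this rule names are not reported here. The receptors and lists were chosen with earlier results of these data known. CDH1, EPCAM and KRT17 and the other markers come from the marker lists, of which the examples were chosen after their values were seen, as was MIEN1, and the count of PACs with a change of 50 points in the dominant base followed the MET values. Alternatives changed the pseudocount, filters, PAC minimum, measure of use, factors, scaling and libraries.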

Additional observations from a re-analysis of the deposited data

Results flagged for a closer look

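The level of ERBB3 with l-lactate over PBS was 0.659 in KYSE30 and 1.87 in TE-1, with counting intervals that lay on opposite sides of 1. It is given here because the lines moved in opposite directions. With 1 library per condition in each line, the difference between the lines was not tested.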

How the results depend on the processing

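With each library left out in turn, fitted on line alone, limma called 1989 to 2394 genes higher in KYSE30 (3371 with all libraries) and 2111 to 2289 higher in TE-1 (3365), and 3 receptor genes in each direction; the lone library of a line was assumed to vary like the other line. No gene was called for distal use in any of these fits (0 to 0, against 298 and 140). Genes with a mean of at least 20 RPM gave 2190 higher in KYSE30. FGFR1 was not among the genes tested there, which left 2 receptor genes higher in TE-1. For l-lactate (2 genes higher, 0 lower), limma called 0 higher with a pseudocount of 0.5, no filter, 1 factor or median-ratio scaling, 1 lower with 3′ UTR PACs only, 27 higher and 10 lower at a mean of at least 20 RPM, and 121 higher and 58 lower with a pseudocount of 5, where 1 receptor gene, ERBB2, was called. ERBB3 then had a log2 difference of -0.0050, and under median-ratio scaling those of MET and AXL were -0.0025 and -0.0023, none called.

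For distal use between lines, a minimum of 1 RPM gave 0 calls in each direction and 0 receptor genes, and PACs listed in all 4 libraries gave 567 genes more distal in KYSE30. With l-lactate the latter gave 18 genes more distal and 36 less. AXL turned to -0.11 at a minimum of 10 RPM and with PACs listed in all libraries, and to -0.18 as odds against the proximal PAC. EGFR turned to 0.58 as odds against its most proximal 3′ UTR PAC. That PAC is the end of EGFR-204 and not the proximal site in the last exon. Neither gene was called in these fits. As each library was left out, AXL ranged from -0.0755 to 0.278 (-0.0755 without KYSE30 PBS). Within KYSE30 and TE-1, the genes past the fold (364 and 376, of which 2 and 1 receptors) were 121 and 148 with a pseudocount of 5 (0 and 0 receptors), 94 and 86 at a mean of at least 20 RPM (1 receptor in KYSE30) and 110 and 114 at 2-fold (1 and 0). Genes past the change of distal use (212 and 244) were 386 and 383 at a minimum of 1 RPM, 99 and 124 at 10 RPM, 604 and 677 at 5 points and 134 in KYSE30 with PACs listed in all libraries.

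Median-ratio scaling and the fits of distal use without the EGFR-204 PAC were added after the data were seen. Count models and TMM scaling were not run, as tags below the listing limit are missing from the tables. Leaving out a library for l-lactate was not run, as it leaves no residual degree of freedom with the line kept. No paired analysis by replicate number was possible because the labels give none, while the l-lactate fits compare treatment within line. The cause of these changes was not tested. The authors' removal of low PACs, rather than depth, limits what is seen below about 3 RPM, and 1 library per group limits every test.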
